A study of Rattus norvegicus with 6 samples.

Results

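The genes described here encode EGF family ligands and the ErbB receptors they bind, measured in isolated dorsal root ganglion (DRG) neurons of levels L1 and L2 from spontaneously hypertensive rats (SHRs). The 10 genes are the 6 ligand genes Tgfa, Hbegf, Areg, Ereg, Btc and Nrg1 and the 4 receptor genes Egfr, Erbb2, Erbb3 and Erbb4, of 25689 genes in the count table, and each was found by its gene name. The family was chosen on the data, because Tgfa had the smallest p of all genes lower after ablation of the perirenal adipose tissue (PRATA). The values of Tgfa are therefore a description without a test, and the other 9 genes were taken for their membership in the family. Ligands and receptors are described apart.

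Wild type SHRs, given by the labels as 6 to 8 weeks old and by the methods of the study as older at purchase, had both perirenal fat pads removed or underwent a sham operation. Neurons were collected 4 weeks later, with 3 samples in the PRATA group and 3 in the sham group. The ganglia were digested and plated for 5 h, and the neurons were rinsed off while faster adhering glial cells stayed on the dish, so glial cells that came off with them are part of each sample. The sources do not say how many rats gave a sample, and p-values measure the spread between these samples only.

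EGF family ligands are made as membrane-anchored precursors, which proteases such as ADAM17 cut to release the growth factor. TGF-alpha, amphiregulin (Areg), HB-EGF, betacellulin (Btc) and epiregulin (Ereg) bind the EGF receptor, and HB-EGF, betacellulin and epiregulin also bind ErbB4. Neuregulin 1 (Nrg1) binds ErbB3 and ErbB4, and ErbB2, which has no known ligand of its own, is the preferred partner of the other receptors. Receptor pairs signal mainly through RAS and ERK and through PI3 kinase and AKT. In peripheral nerve, neuregulin 1 on axons acts through ErbB2 and ErbB3 on Schwann cells, where it controls their survival and myelin thickness, and ErbB3 is also found in satellite glial cells.

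Raw counts of reads on genes were compared, with totals between 5892967 and 15226952 per library. Counts were scaled to CPM (counts relative to library size, TMM-normalized), and 3 counts in a library correspond to between 0.207 and 0.468 CPM. The largest single gene was the 7SL RNA gene Rn7sl1 in PRATA replicate 3 and sham replicate 1, with 5.4% and 5.63% of the counts, and a 5S ribosomal RNA gene in the other 4 libraries, with at most 2.62%, so results are also given without these 2 libraries. All 15 sensory neuron markers were detected in every library, with a summed level of 13765 to 21219 CPM after PRATA and 9595 to 14493 CPM after the sham operation. Each of the 15 was higher after PRATA, 5 of them at an unadjusted p under 0.05, with a median log2 fold change of 0.59, where 7760 of 14919 genes tested were higher in sign and 8.19% at this p. Of 12 Schwann cell markers, 11 were matched and detected in every library, with a summed level of 1106 to 2104 CPM after PRATA and 1221 to 1679 CPM after the sham operation, so the samples held glial RNA as well. In bulk samples such as these, fewer cells of a type and less RNA per cell cannot be told apart.

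The low-count filter of edgeR kept all 10 genes, among 14919 genes tested. Ereg, with 0, 7 and 3 counts in the PRATA replicates, passed it through the sham libraries, where it was high. The filter thus favoured a lower call and a separation of Ereg, and both are given as a description. Of the 9 genes other than Tgfa, 7 were lower and 2 higher after PRATA in sign, where 7159 of 14919 genes tested were lower. Among the 7, Hbegf, Nrg1 and Erbb2 changed sign in a setting with samples left out. The ligands Btc and Ereg were lower at an unadjusted p under 0.05, where 10.1% of all genes tested were called in this direction. No member was higher at this threshold, where 8.19% of genes were. With adjustment over all genes, the quasi-likelihood test of edgeR called 0 genes at 0.05, where 1512 were lower and 1222 higher before adjustment and DESeq2 called 502 lower (4.29%) and 226 higher (1.93%) after adjustment. For the 9 members the edgeR adjusted p lay from 0.156 to 0.837. For Btc and Ereg, among the 9 members other than Tgfa, every PRATA sample was below every sham sample. This separation was shown in this direction by 11.2% of genes tested. Tgfa, chosen on this contrast, was separated as well and is not set against that share. The groups overlapped for the other 7 genes, all 4 receptors among them, where 11.6% of genes were separated toward higher levels.

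The members called varied with the processing. At an unadjusted p under 0.05, voom with sample quality weights called Btc, Ereg and Egfr lower and Areg higher, where 15.3% of genes were called lower and 15.6% higher. Without PRATA replicate 3 and sham replicate 1, edgeR called Btc, Ereg and Egfr lower and Erbb3 higher, against 6.90% and 5.98% of genes. With the replicate number as a block it called Btc and Ereg lower, against 6.08% of genes, and no member higher, against 4.16%.

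**Figure D1:**
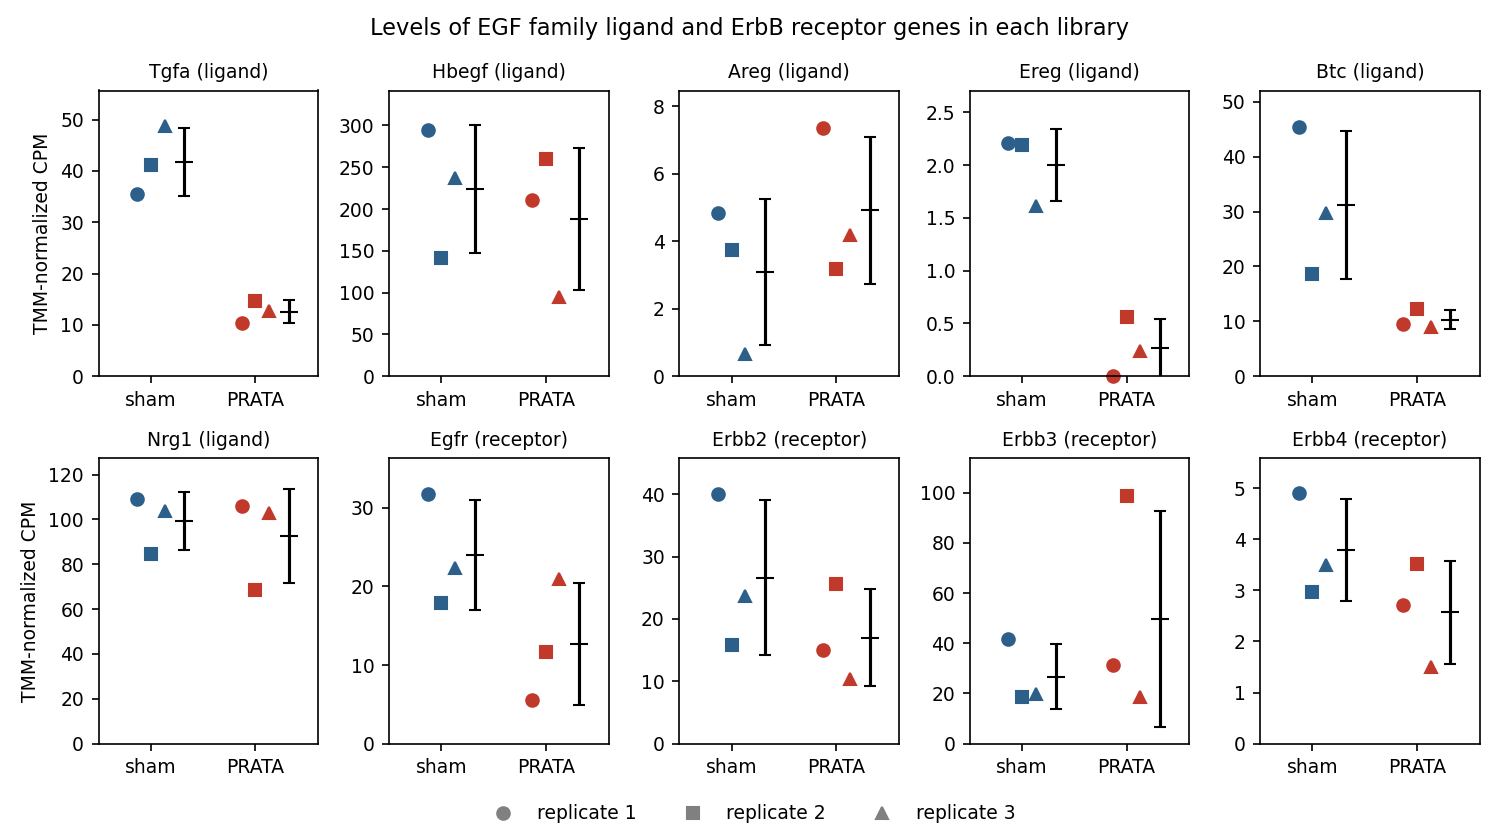
TMM-normalized CPM (vertical axes, linear, from 0) of the 6 ligand and 4 receptor genes in each library, with sham in blue and PRATA in red, the replicate shown by the marker, and the mean with its SD (n = 3) as the black bar beside each group. The PRATA points of Tgfa, Ereg and Btc lie below all sham points, while Erbb3 has 1 high point at 98.9 CPM in PRATA replicate 2.

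Tgfa (ENSRNOG00000016182), which encodes TGF-alpha, was at 10.3, 14.7 and 12.7 CPM in PRATA replicates 1, 2 and 3 and at 35.6, 41.1 and 48.7 CPM in sham replicates 1, 2 and 3. No PRATA sample was above 14.7 CPM and no sham sample below 35.6 CPM. The raw counts were 80, 185 and 161 after PRATA and 515, 263 and 516 after the sham operation, where the library with the fewest reads, sham replicate 2, had 263. The fitted log2 fold change was -1.72 (standard error 0.21), or 3.3-fold lower after PRATA, and it lay between -1.87 and -1.59 under 13 alternative settings. The gene next to Tgfa in the ranking by p among lower genes was Nol8, with a log2 fold change of -1.72 as well.

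Against the marker genes of the same library, Tgfa was lower after PRATA for each of 6 cell types. As Tgfa was chosen on this contrast, these values are a description, and the share of other genes with such a pattern was not computed. On the log2 CPM scale, its level minus the mean of the marker genes differed between the groups by between -2.36, with endothelial markers, and -1.23, with satellite glia markers, and the groups did not overlap for any of the 6 lists. Relative to the Schwann cell markers it was at -2.32, -2.63 and -1.68 in the PRATA replicates and -0.76, -0.06 and 0.30 in the sham replicates. The groups came closest relative to the fibroblast markers, with -0.66 in PRATA replicate 1 and -0.54 in sham replicate 1, and relative to the satellite glia markers, with -1.81 in PRATA replicate 3 and -1.69 in sham replicate 1.

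Over the 6 samples, the gene whose centred log2 CPM profile was nearest to that of Tgfa among 14918 others was Ajuba, a LIM domain scaffold protein of cell junctions, with a root mean square difference of 0.149. Ajuba was at 3.49, 4.22 and 3.24 CPM after PRATA and 10.5, 12.3 and 17.4 CPM after the sham operation, with its highest value in sham replicate 3, as for Tgfa. The next were Ces1d (0.21), LOC691143 (0.233), AABR07049085.1 (0.248) and Pmepa1 (0.249), a gene known to be induced by TGF-beta. Ces1d was at 0.258, 0.398 and 0.237 CPM in PRATA replicates 1, 2 and 3, near the level of 3 counts. Tgfa set the choice of these genes, so their likeness is a description.

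Btc (ENSRNOG00000002728), which encodes betacellulin, was at 9.55, 12.3 and 9.01 CPM in PRATA replicates 1, 2 and 3 and 45.5, 18.6 and 29.7 CPM in sham replicates 1, 2 and 3. The PRATA samples lay close together, and the sham samples spread widely with sham replicate 1 highest. The PRATA mean was 10.3 ± 1.79 CPM (SD, n = 3) and the sham mean 31.2 ± 13.5 CPM (SD, n = 3), which gave a fitted log2 fold change of -1.60 (95% interval -2.36 to -0.85, adjusted p = 0.156, edgeR). Its log2 fold change ranged from -1.86 to -1.15 over 13 alternatives, and its adjusted p from 0.00116 to 0.55. That p was under 0.05 with DESeq2 (0.00116), with limma voom and sample quality weights (0.0315), and in edgeR without sham replicate 2 (0.0278), settings that placed 4.29%, 4.87% and 3.62% of genes tested lower at this adjusted p. Without PRATA replicate 3 and sham replicate 1 the log2 fold change was -1.15 (edgeR adjusted p = 0.233). Relative to the Schwann cell markers, Btc was lower after PRATA by 1.82 on the log2 scale, with groups apart, while relative to the fibroblast and the endothelial markers its groups overlapped.

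Ereg (ENSRNOG00000002771), which encodes epiregulin, had the fewest reads of the 10 genes, with 0, 7 and 3 counts in PRATA replicates 1, 2 and 3 and 32, 14 and 17 counts in sham replicates 1, 2 and 3. On the CPM scale this was 0, 0.558 and 0.237 after PRATA, at or near the level of 3 counts, and 2.21, 2.19 and 1.61 after the sham operation. Summed over the groups, 10 counts stood against 63, which at these depths is a level 6.6 times higher after the sham operation (exact 95% interval 3.36 to 14.4, counting error only). The fitted log2 fold change was -2.74 (95% interval -4.46 to -1.02, adjusted p = 0.168, edgeR), with an adjusted p between 0.0356 and 0.55 over the alternatives other than DESeq2, which gave none, the lowest with voom and sample quality weights. Without PRATA replicate 3 and sham replicate 1 it was -2.51 (edgeR adjusted p = 0.371). As Ereg passed the low-count filter through its sham libraries, these values are a description.

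Areg (ENSRNOG00000002754), which encodes amphiregulin, went the other way in its mean. It was at 7.36, 3.19 and 4.19 CPM in PRATA replicates 1, 2 and 3 and 4.84, 3.75 and 0.661 CPM in sham replicates 1, 2 and 3. The groups overlapped, and sham replicate 3, with 7 counts, was low. The log2 fold change was 0.65 (95% interval -0.83 to 2.14, adjusted p = 0.617, edgeR). It ranged from 0.18 without sham replicate 3 and 0.24 without PRATA replicate 1 to 1.19 without sham replicate 1, 1.31 without PRATA replicate 3 and sham replicate 1, and 1.71 with voom and sample quality weights.

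Btc, Areg, Ereg and the further ligand gene Epgn (epigen) follow each other in this order on chromosome 14 in the RefSeq annotation of GRCr8, with no other annotated gene between them. Within this cluster Btc and Ereg were lower after PRATA at the unadjusted threshold, Areg was not, and Epgn, at 3, 0 and 0 counts after PRATA and 5, 5 and 0 counts after the sham operation, was not tested. The count ratio of Btc to Areg, which does not depend on library scaling, was 1.3, 3.88 and 2.15 in the PRATA replicates and 9.4, 4.96 and 44.9 in the sham replicates. These groups did not overlap (exact permutation test of the log ratio, two-sided, p = 0.10, the smallest p possible), and this ratio was chosen after the values were seen, among 6 ratios computed.

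To set the lower ligand genes Tgfa and Btc beside Areg, which lies next to Btc, the 250 bases before the annotated start are shown 5′ to 3′ on the gene's strand (RefSeq, GRCr8), with matches of searched motifs in capitals. The regions are chr4:120175469-120175718 on the plus strand for Tgfa, chr14:16992418-16992667 on the plus strand for Btc and chr14:17265642-17265891 on the minus strand for Areg.
Tgfa: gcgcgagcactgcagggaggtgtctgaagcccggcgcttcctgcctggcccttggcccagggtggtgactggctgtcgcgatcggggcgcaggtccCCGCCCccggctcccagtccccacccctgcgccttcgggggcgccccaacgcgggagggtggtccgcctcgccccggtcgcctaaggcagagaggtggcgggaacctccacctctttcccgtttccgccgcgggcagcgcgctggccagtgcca
Btc: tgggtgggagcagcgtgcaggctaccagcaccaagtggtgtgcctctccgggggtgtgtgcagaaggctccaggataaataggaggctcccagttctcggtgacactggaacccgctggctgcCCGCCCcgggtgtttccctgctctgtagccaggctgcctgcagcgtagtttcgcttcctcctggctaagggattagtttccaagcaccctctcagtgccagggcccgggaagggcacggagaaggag
Areg: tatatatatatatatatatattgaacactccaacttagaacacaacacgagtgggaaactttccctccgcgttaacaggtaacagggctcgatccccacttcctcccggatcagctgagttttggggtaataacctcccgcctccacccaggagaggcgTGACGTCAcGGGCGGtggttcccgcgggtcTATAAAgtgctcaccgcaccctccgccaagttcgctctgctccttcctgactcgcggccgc
The motifs searched on both strands were the AP-1 motif TGANTCA, the cAMP response element TGACGTCA, the GC box GGGCGG and the TATA box TATAAA, none of which overlapped another in these windows. The Tgfa window, with 74.4% G and C, held 1 GC box, which began 154 bases before the start on the opposite strand. The Btc window, with 62.8% G and C, held 1 GC box at 127 bases, also on the opposite strand. The Areg window, with 54.4% G and C, held a cAMP response element at 91 bases, a GC box at 82 bases and a TATA box at 61 bases before the start. Of the 7 members with a promoter in the table, 6 held a GC box, 1 a cAMP response element, 1 a TATA box and 0 an AP-1 motif, where 30.5%, 1.59%, 12.9% and 6.34% of all 33469 promoters of this length did. These matches are descriptions of the letters only.

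Hbegf (ENSRNOG00000018646) encodes the heparin-binding ligand HB-EGF. It was at 211, 260 and 94.7 CPM in PRATA replicates 1, 2 and 3 and 294, 142 and 237 CPM in sham replicates 1, 2 and 3. High and low libraries occurred in both groups. The log2 fold change was -0.25 (95% interval -1.16 to 0.65, adjusted p = 0.767, edgeR), and it turned to 0.07 without PRATA replicate 3 and to 0.30 without PRATA replicate 3 and sham replicate 1.

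Nrg1 (ENSRNOG00000010392), the neuregulin through which axons signal to Schwann cells, varied little. It was at 106, 68.7 and 103 CPM in PRATA replicates 1, 2 and 3 and 109, 84.6 and 104 CPM in sham replicates 1, 2 and 3. The log2 fold change was -0.10 (95% interval -0.59 to 0.39, adjusted p = 0.837, edgeR), and 0.08 without PRATA replicate 2. Relative to the sensory neuron markers, Nrg1 was at -2.55, -2.73 and -2.65 on the log2 scale in the PRATA replicates and -1.52, -2.43 and -1.84 in the sham replicates. These groups did not overlap (difference -0.71, exact permutation test, two-sided, p = 0.10), beside the higher level of the marker list itself after PRATA.

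**Figure D2:**
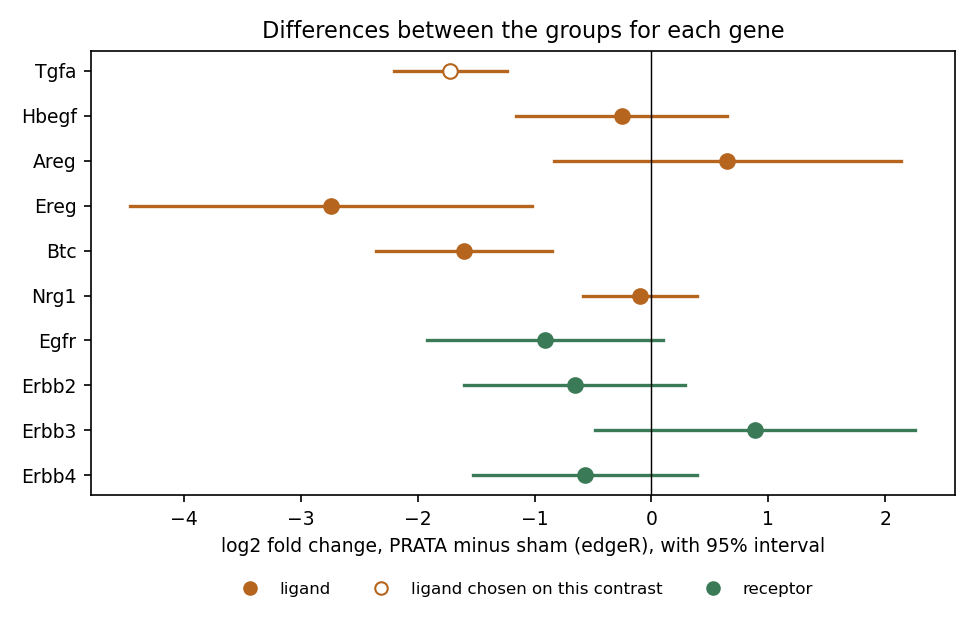
Log2 fold change of each gene, PRATA minus sham, from edgeR with its 95% interval (horizontal axis), with ligands in brown, receptors in green and Tgfa, which was chosen on this contrast, as an open circle. The intervals of Ereg (-4.46 to -1.02) and Btc (-2.36 to -0.85) lie below 0, and those of the 4 receptors, Hbegf, Areg and Nrg1 include 0. The interval drawn for Tgfa is a description and not a test.

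With all 6 samples and the low-count filter, 0 of the 4 receptors passed an unadjusted p of 0.05 in edgeR, and Egfr, Erbb2 or Erbb3 did under other settings. Egfr (ENSRNOG00000004332), the receptor of the lower ligands, was at 5.55, 11.6 and 21 CPM in PRATA replicates 1, 2 and 3 and 31.7, 17.9 and 22.3 CPM in sham replicates 1, 2 and 3. Only PRATA replicate 3 reached the sham range. The log2 fold change was -0.91 (95% interval -1.92 to 0.10, adjusted p = 0.31, edgeR) and ranged from -1.47, without PRATA replicate 3, to -0.59, without PRATA replicate 1, with 1 sample left out (edgeR adjusted p = 0.287 and 0.598), and was -0.68 without sham replicate 1.

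The fibroblast markers, of which 9 of 10 were matched and detected in every library, also varied widely among the PRATA samples. They summed to 347, 765 and 2020 CPM in PRATA replicates 1, 2 and 3 and between 926 and 1874 CPM after the sham operation, and 0 of the 9 passed an unadjusted p of 0.05, with a median log2 fold change of -0.47. Relative to these markers Egfr was at -1.53, -1.17 and -1.21 in the PRATA replicates and -0.71, -1.23 and -0.10 in the sham replicates, a difference of -0.63 with overlapping groups (exact permutation test, two-sided, p = 0.30). Relative to the sensory neuron and the macrophage markers the groups of Egfr did not overlap, with differences of -1.65 and -1.36 (exact permutation test, two-sided, p = 0.10 each, the smallest possible). These 2 lists themselves had median log2 fold changes of 0.59 and 0.46. Relative to the Schwann cell, satellite glia and endothelial markers the groups overlapped, with differences of -1.38, -0.58 and -1.71. The part of fibroblast RNA in the Egfr level was not tested. The count ratio of Tgfa to Egfr was 1.86, 1.27 and 0.608 after PRATA and 1.12, 2.29 and 2.19 after the sham operation, so the groups overlapped.

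Erbb2 (ENSRNOG00000006450), the co-receptor, was at 15, 25.6 and 10.4 CPM in PRATA replicates 1, 2 and 3 and 40.1, 15.9 and 23.6 CPM in sham replicates 1, 2 and 3. The highest value was in sham replicate 1. The log2 fold change was -0.65 (95% interval -1.60 to 0.29, adjusted p = 0.425, edgeR), and ranged from -1.08 without PRATA replicate 2 to 0.03 without PRATA replicate 3 and sham replicate 1. In the fit without PRATA replicate 2, Erbb2 was called lower at an unadjusted p under 0.05 (edgeR adjusted p = 0.306). The share of all genes called in that fit was not computed, so this call cannot be set against it. Erbb4 (ENSRNOG00000014248), a receptor for neuregulins and for several EGF receptor ligands, was low, between 1.5 and 4.91 CPM over all samples, with a log2 fold change of -0.57 (95% interval -1.53 to 0.39, adjusted p = 0.488, edgeR). It was -0.87 without PRATA replicate 2, -0.35 without sham replicate 1, -0.29 without PRATA replicate 3, and -0.06 without both of the latter.

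Erbb3 (ENSRNOG00000004964), the neuregulin receptor of Schwann cells, was the receptor with a higher mean after PRATA. It was at 31.4, 98.9 and 18.7 CPM in PRATA replicates 1, 2 and 3 and 41.6, 18.7 and 19.7 CPM in sham replicates 1, 2 and 3. PRATA replicate 2 stood above all other samples, and without it the log2 fold change of 0.89 (95% interval -0.48 to 2.26, adjusted p = 0.45, edgeR) became -0.10. It was 1.37 without sham replicate 1, 1.28 without PRATA replicate 3 and 1.76 without PRATA replicate 3 and sham replicate 1.

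PRATA replicate 2 also had the highest summed level of Schwann cell markers, at 2104 CPM, against 1252 and 1106 CPM in PRATA replicates 1 and 3. Relative to these markers Erbb3 was at -0.74, 0.10 and -1.13 on the log2 scale in the PRATA replicates and -0.54, -1.18 and -1.0 in the sham replicates, a difference of 0.32 with overlapping groups (exact permutation test, two-sided, p = 0.60). Within the Schwann cell list of 11 genes, 1 was lower and 2 were higher at an unadjusted p under 0.05, against 10.1% and 8.19% of all genes tested. The median log2 fold change was 0.28. The lower gene was Sox10, the transcription factor of the glial lineage, at 59.9, 88.4 and 42 CPM after PRATA and 214, 109 and 267 CPM after the sham operation. The higher genes were Prx and Ncmap, which encode proteins of myelinating Schwann cells. Prx was at 43.4, 88.7 and 35.6 CPM after PRATA and 25.3, 27.5 and 11.4 CPM after the sham operation. Ncmap was at 1.68, 4.3 and 1.58 CPM after PRATA. After the sham operation it was at 0.484, 0.78 and 0.189 CPM, near the level of 3 counts, so it passed the filter through the PRATA libraries. In sign 4 genes of the list were lower and 7 higher, and the part of the list in the Erbb3 level was not tested.

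Of the 8 satellite glia markers, all had a negative sign in their fitted fold change, where 7159 of 14919 genes tested did. Cadm2, at -0.00 on the log2 scale, did not differ. The median was -0.53, and 0 were called lower at an unadjusted p under 0.05, against 10.1% of genes tested. The markers summed to 3069 to 5770 CPM after PRATA and 4021 to 8028 CPM after the sham operation, with none of them at 0 in a library. Relative to them Erbb3 was higher in every PRATA sample, by 1.12 on the log2 scale (exact permutation test, two-sided, p = 0.10). Over all members other than Tgfa and 6 marker lists, 54 such differences were compared by the exact permutation test. The groups did not overlap in 16 of them, with 15 lower and 1 higher after PRATA. Ereg gave 6 of these and Btc 4, and both genes were already separated in CPM. The 6 of Ereg are a description, since it passed the low-count filter through its sham libraries. The comparisons share genes and lists, so they are not independent. The share of other genes with such a pattern was not computed, so this count cannot be set against it. With 3 samples against 3, the exact permutation test cannot go below p = 0.10.

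The count ratio of Erbb3 to its partner Erbb2 was 2.09, 3.87 and 1.81 in the PRATA replicates, against 1.04, 1.18 and 0.836 in the sham replicates. Every PRATA sample had the higher ratio (exact permutation test of the log ratio, two-sided, p = 0.10), and this ratio was also chosen after the values were seen.

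**Figure D3:**
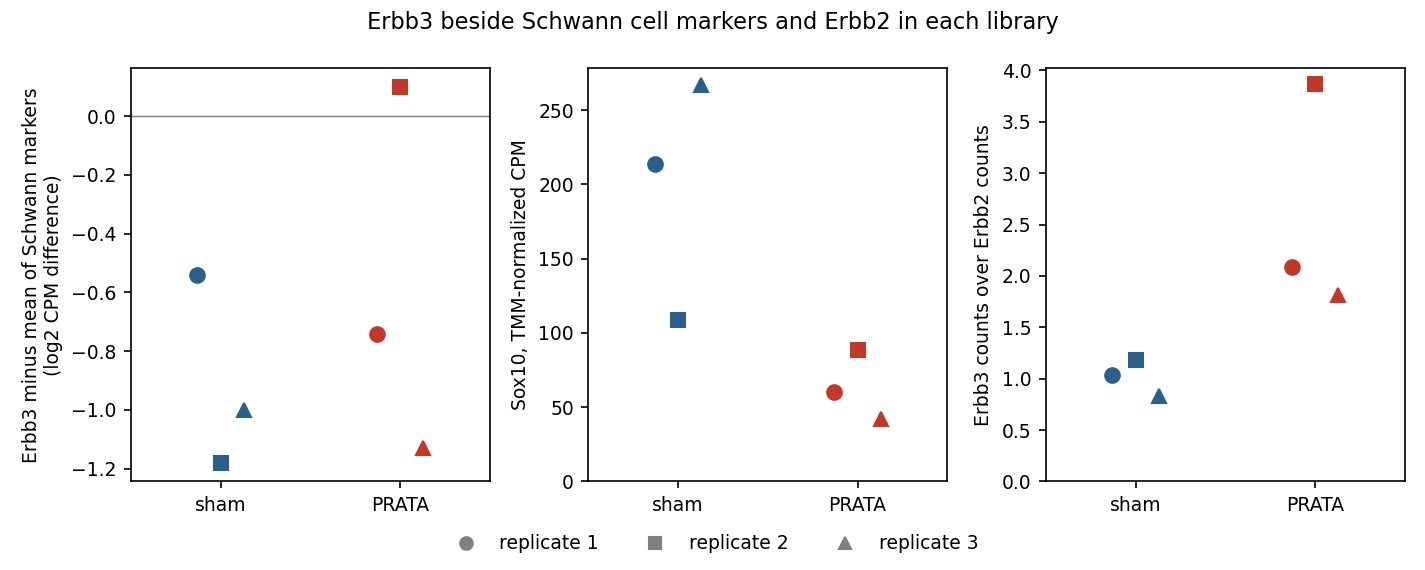
Erbb3 minus the mean of the Schwann cell markers on the log2 CPM scale (left), Sox10 in TMM-normalized CPM (middle, from 0) and the ratio of Erbb3 to Erbb2 counts (right, from 0) in each library, with sham in blue, PRATA in red and the replicate shown by the marker. The groups overlap on the left, Sox10 is between 42 and 88.4 CPM after PRATA and between 109 and 267 CPM after the sham operation, and the ratio is at least 1.81 in the PRATA samples and at most 1.18 in the sham samples.

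Other genes of the pathway were read from 5 lists with 75 members, of which 72 were tested. At an unadjusted p under 0.05, 8 were lower and 5 higher after PRATA, with a median log2 fold change of -0.04, where all genes tested had a median of 0.02 and 10.1% and 8.19% were called in these directions. After adjustment 0 passed 0.05 in edgeR and 3 did in DESeq2, both directions together. DESeq2 called 4.29% of genes lower and 1.93% higher at this threshold. Without sham replicate 2 edgeR called 13 of them lower before adjustment, against 14.1% of genes tested lower and 13.4% higher, and 6 in all after adjustment, against 3.62% of genes lower and 1.05% higher.

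Of the other EGF family ligands, 2 of 5 were tested, with 1 higher and 0 lower at an unadjusted p under 0.05. Of all genes tested, 8.19% and 10.1% were called in these directions. Nrg2, which encodes a second neuregulin that binds ErbB3 and ErbB4, was at 14.3, 12.3 and 14.5 CPM after PRATA and 9.88, 7.18 and 9.63 CPM after the sham operation, with groups that did not overlap and a log2 fold change of 0.62 (95% interval 0.11 to 1.12, adjusted p = 0.219, edgeR). Egf itself had a log2 fold change of -0.08, and Epgn and Nrg4, with at most 5 counts in a library, were not tested.

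Of 10 genes for the release and trafficking of ligands, 2 were lower and 0 higher at an unadjusted p under 0.05. Of all genes tested, 10.1% and 8.19% were called in these directions. The median log2 fold change of the list was -0.14. Adam17, the main sheddase of TGF-alpha, amphiregulin, epiregulin and HB-EGF, was at 55.1, 61.6 and 49.4 CPM after PRATA and 111, 59.2 and 138 CPM after the sham operation. Sham replicate 2 lay within the PRATA range, and the log2 fold change was -0.89 (adjusted p = 0.196, edgeR). Adam12, a metalloprotease that can shed HB-EGF, was at 2.58, 3.98 and 5.38 CPM after PRATA and 9.88, 7.34 and 20.8 CPM after the sham operation, with a log2 fold change of -1.66 (adjusted p = 0.168, edgeR).

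Among the 32 adaptors and kinases, 3 were higher and 0 lower at an unadjusted p under 0.05, against 8.19% and 10.1% of all genes tested. In sign 17 were higher and 15 lower, and the median was 0.04 on the log2 scale. Stat5b, a transcription factor activated by growth factor and cytokine receptors, was higher by 0.58 on the log2 scale, and Plcg1, the phospholipase recruited by activated receptors, by 0.67 (adjusted p = 0.171 and 0.175, edgeR). For both genes the groups did not overlap.

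Among 13 inhibitors and turnover genes, 3 were lower and 0 higher at an unadjusted p under 0.05, against 10.1% and 8.19% of all genes tested. The median was -0.04. Errfi1, a feedback inhibitor that binds the kinase domain of the EGF receptor, was at 26.5, 32.8 and 40.5 CPM after PRATA and 60.2, 41.5 and 47.1 CPM after the sham operation, with a log2 fold change of -0.58 (adjusted p = 0.234, edgeR). Socs5, which promotes degradation of the EGF receptor, had a log2 fold change of -1.02 (adjusted p = 0.182, edgeR). The groups did not overlap for either, but came close for both.

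Of 15 genes that respond to ERK, 3 were lower and 1 higher at an unadjusted p under 0.05, against 10.1% and 8.19% of all genes tested. The median was -0.27. Fosl1, a subunit of AP-1, was at 195, 192 and 140 CPM after PRATA and 522, 220 and 384 CPM after the sham operation, with a log2 fold change of -1.10 (adjusted p = 0.175, edgeR). Etv5, an ETS factor, was higher with a log2 fold change of 0.55 (adjusted p = 0.198, edgeR). The remaining genes called lower were Spry2 and Myc, with log2 fold changes of -0.96 and -0.80 (adjusted p = 0.201 and 0.244, edgeR) and overlapping groups. The ERK targets Dusp6 and Egr1 had log2 fold changes of -0.27 and 0.81 with overlapping groups. In sign 10 genes of the list were lower and 5 higher.

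**Figure D4:**
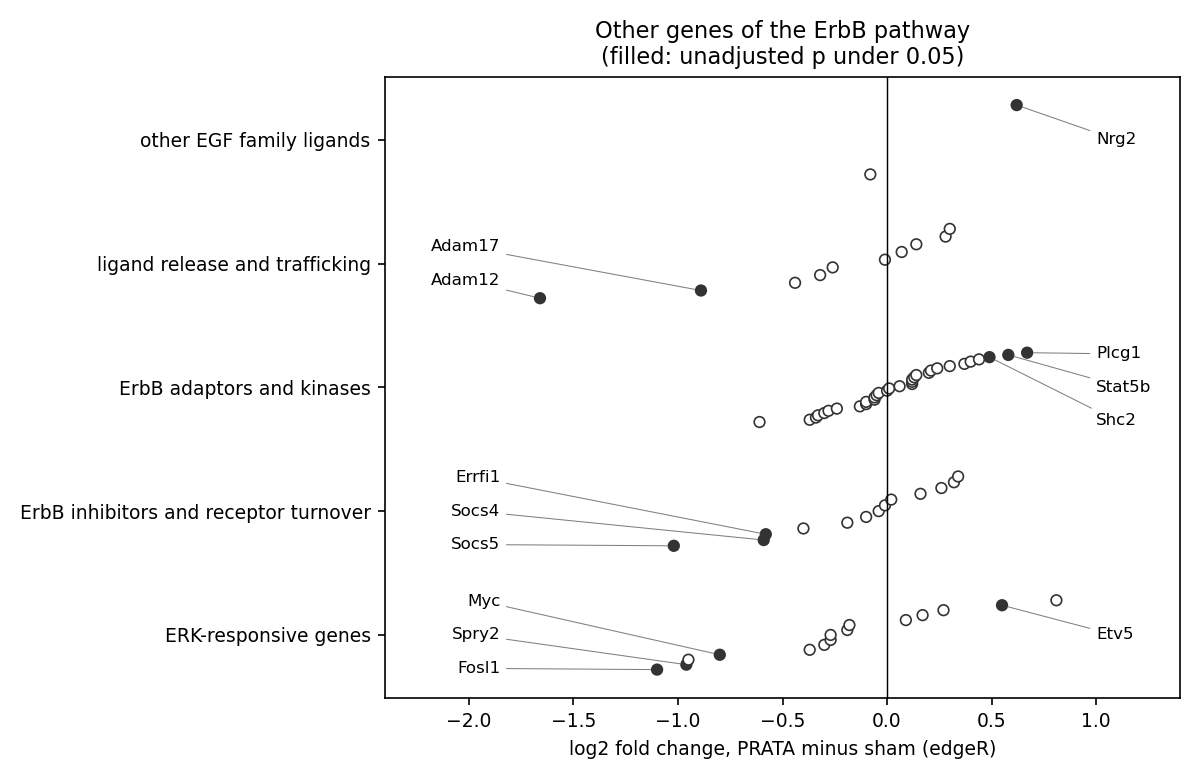
Log2 fold change, PRATA minus sham, of 72 other genes of the pathway (horizontal axis) in 5 lists (vertical axis, where the position within a list follows the rank of the value), with filled points for an unadjusted p under 0.05 in edgeR. The 8 filled points below 0 belong to the release, inhibitor and ERK lists, and the 5 above 0 to the ligand, adaptor and ERK lists.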

How the data were processed

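RNA of isolated L1-L2 DRG neurons was sequenced from stranded total RNA libraries with ribosomal fragments cleaved. The deposited table holds raw counts per gene, made by the authors without normalization, and all 6 sample columns were used. The paper's text describes HISAT2, StringTie and FPKM values, whereas the submitters' processing notes name STAR 2.7.3a, RSEM and DESeq2. The counting tool, genome build, annotation and strand setting of the counts are not given in the sources used here.

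Genes were kept by edgeR's filterByExpr (minimum count 10, minimum total 15), scaled by TMM, and compared by the two-sided quasi-likelihood test of edgeR, with p-values adjusted by Benjamini-Hochberg over 14919 genes (R 4.3.3, edgeR 4.0.16, limma 3.58.1, DESeq2 1.42.0). Log2 CPM used a prior count of 2. The fit was tested on simulated data. Figures used Python 3.11.15 and matplotlib 3.10.9.

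The members and lists were chosen with earlier results of these data known. Named were all members, up to 2 genes of each pathway list with the smallest p under 0.05, and the 5 genes nearest to Tgfa. Epgn, Egf, Nrg4, Dusp6, Egr1, Spry2, Myc, Cadm2, Prx, Ncmap and Sox10 and the promoter motifs were chosen after their values were seen. Besides the neuron, Schwann cell, satellite glia and fibroblast lists, the macrophage list had 9 genes tested with a median log2 fold change of 0.46, and the endothelial list 7 with a median of 0.32, and 0 genes of either had an unadjusted p under 0.05. Their summed levels were 22.5 to 76.2 and 61.3 to 114 CPM after PRATA and 26.2 to 58.5 and 26.2 to 163 CPM after the sham operation, and Cx3cr1 was at 0 in a library. Foxd3, Col1a2, Pecam1 and Nrg3 were not analysed here.

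Alternatives were no low-count filter, scaling by library size alone or by the size factors of DESeq2, DESeq2 itself, the replicate number as a block, voom with quality weights, each sample left out, and both libraries rich in Rn7sl1 left out.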

Additional observations from a re-analysis of the deposited data

How the results depend on the processing

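Of the 9 members other than Tgfa, 2 had an unadjusted p under 0.05, and 4 did with limma voom and sample quality weights (Btc, Ereg, Egfr and Areg) and without PRATA replicate 3 and sham replicate 1 (Btc, Ereg, Egfr and Erbb3). With 1 sample left out in turn the number was between 2 and 4. For these fits the share of all genes called was computed only without sham replicate 2 (14.1% lower, 13.4% higher). Members with an adjusted p under 0.05 numbered 0 in edgeR, 1 in DESeq2 (which gave an adjusted p for 6 of the 9, and none for Areg, Ereg and Erbb4), 2 with voom, and 0 to 1 with a sample left out (Btc, without sham replicate 2). With samples left out, the log2 fold change of Hbegf was between -0.55 and 0.30 (0.07 without PRATA replicate 3, 0.30 without sham replicate 1 as well), that of Erbb2 between -1.08 and 0.03 (0.03 without both), that of Nrg1 between -0.24 and 0.08 and that of Erbb3 between -0.10 and 1.76 (0.08 and -0.10 without PRATA replicate 2, 1.76 without both libraries). Erbb3 relative to the Schwann cell markers was between -0.03, without PRATA replicate 2, and 0.77, without both libraries. Median log2 fold changes of the release, adaptor, inhibitor and ERK lists kept their sign in 11, 11, 9 and 11 of 13 alternatives. The causes were not tested.

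Pathway genes at an unadjusted p under 0.05 numbered 13, against 21 with voom and 6 without PRATA replicate 3 and sham replicate 1, and between 6 and 20 with 1 sample left out (6 without sham replicate 3, 7 without PRATA replicate 1 or 3, 20 without sham replicate 2). Those lower numbered 8, against 3 without both libraries and between 3 and 13 with 1 sample left out. Those higher numbered 5, against 10 with voom, 3 without both libraries and between 2 and 7 with 1 sample left out. With 1 sample left out, the share of all genes called was computed only without sham replicate 2. The other counts of this kind cannot be set against such a share. At an adjusted p under 0.05, 0 became 3 in DESeq2, 5 with voom and up to 6 with a sample left out, without sham replicate 2. Of all genes, DESeq2 called 4.29% lower and 1.93% higher. Without sham replicate 2 the shares were 3.62% and 1.05%. With voom 4.87% were lower, and the share higher was not computed, so the 5 cannot be set against it.

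With the replicate number as a block, 5 of 72 pathway genes were lower and 4 higher at an unadjusted p under 0.05. Of all genes tested, 6.08% and 4.16% were called in these directions. The block changed no call of a member. Samples with the same number correlated, as deviations from the mean of their group, at -0.35, -0.051 and -0.35 across genes, which are not independent, so the numbers were not taken as pairs. Depth limits Ereg, Areg and Erbb4 most, with 0 to 71 counts per library.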

Other observations

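By the distance between centred log2 CPM profiles over the 6 samples, the members stood apart from Tgfa to very different degrees. Btc ranked 233rd of 14918 genes in nearness (root mean square difference 0.469) and Ereg 1158th (0.633), whereas Hbegf ranked 6117th (0.913), Erbb3 14253rd (1.42) and Areg 14694th (1.68). Its receptor Egfr ranked 1440th, with a difference of 0.658. The rank is a description, since Tgfa was chosen on this contrast.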
